A study of Homo sapiens with 9 samples.

Results

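Cells in which IMPDH2 had been knocked down were compared with cells in which IMPDH1 had been knocked down, over every gene expressed in either. The comparison takes 6 of the 9 RNA libraries of the study: the 3 labelled shIMPDH2 and the 3 labelled shIMPDH1, chosen by their labels alone. The other 3, labelled shControl, carry a control hairpin and are given here as the reference level. All 9 are from Huh7, an established line of human hepatocellular carcinoma cells, which the labels file under liver. The shIMPDH1 group received lentivirus with a short hairpin RNA against IMPDH1 in the pLKO.1 backbone, the shIMPDH2 group received the same kind of vector with a hairpin against IMPDH2, and both were then selected in puromycin as stable populations, in medium with serum and antibiotics. The vector, the infection with polybrene and the selection are thus shared by both pools. No sequence of a hairpin and no number of hairpins per gene is given in the sources used here, so each group is 1 selected population per target as far as the labels tell. The loss of 1 isozyme, an off-target effect of its hairpin and the history of its pool cannot be told apart in a difference between these groups.

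Inosine monophosphate dehydrogenase (IMPDH) oxidises IMP to XMP, the rate-limiting step from the common purine precursor to guanine nucleotides. GTP made from it feeds RNA and DNA synthesis, ribosome production, G proteins and small GTPases of the cytoskeleton. Human cells have a pair of closely related isozymes. IMPDH2 is known as the form induced in proliferating and cancer cells, and IMPDH1 as the form with more constant expression in most tissues. The question addressed here is which transcripts separate the knockdown of 1 isozyme from the knockdown of the other.

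Library totals of the 6 pool libraries ranged from 44560837 to 53239837 counts, and 17396 genes passed the filter on low counts. Levels are CPM (counts scaled to the size of the library) adjusted by the trimmed mean of M values (TMM), and differences are log2 fold changes of shIMPDH2 minus shIMPDH1 with their standard error (SE), so that a positive value is a higher level in shIMPDH2. Each adjusted p comes from the quasi-likelihood test of edgeR, with the Benjamini-Hochberg method applied across these genes, and a gene is called higher or lower at an adjusted p under 0.05. The series text calls the replicates biological but does not say how cultures were kept apart, and the p-values measure the spread between these samples only. The common biological coefficient of variation was 0.0268. On the leading principal components the 3 groups were separate, with shIMPDH1 between -29.9 and -28.3 and shIMPDH2 between 19.6 and 22.9 on the component that held 32.5% of the variance. Hepatocyte markers were abundant in every library (summed 20871 to 21762 CPM in shIMPDH1 and 22692 to 23730 CPM in shIMPDH2). Markers of other cell types were read in part. Of 6 leukocyte markers 2 passed the filter, of which LYZ was lower (-0.59) and CD14 higher (0.49), and PTPRC, CD3E and CD68 did not pass. Of 5 endothelial markers PECAM1 and CDH5 passed and VWF, KDR and TEK did not. PECAM1 was higher (0.31), a call lost without shIMPDH1 replicate 3 (edgeR adjusted p = 0.0540), and CDH5 was not called (0.76). Of 6 fibroblast markers 5 passed, with COL1A1 (1.56) and PDGFRB (0.48) higher and COL1A2 (-0.27) lower, and DCN did not. Of 5 cholangiocyte markers 4 passed, with EPCAM (-0.75) and CFTR (-0.76) lower, and KRT7 did not. All 9 libraries are from the Huh7 line, so these markers describe transcripts of the cultures and are no count of other cell types. Whether any other cells were present was not tested. In bulk RNA such as this, fewer cells that express a gene and less of its RNA per cell cannot be told apart.

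Each target transcript was lowest in its own knockdown pool, and the other isozyme was not lower there than in shControl. IMPDH1 (chr7:128392277-128410252, minus strand) stood at 25.3, 23.5 and 24.7 CPM in the shIMPDH1 libraries and at 66.4, 71.5 and 73.1 CPM in the shIMPDH2 libraries, beside 62.9, 62.5 and 62.6 CPM in shControl. All 3 shIMPDH1 libraries were below the other 6, and those of shIMPDH2 were the highest. The difference between the pools was 1.52 on the log2 scale (SE 0.040, edgeR adjusted p = 2.56e-21), or 2.87-fold. IMPDH2 (chr3:49024325-49029408, minus strand) stood at 271, 274 and 277 CPM in shIMPDH1 and at 109, 110 and 110 CPM in shIMPDH2, beside 226, 227 and 230 CPM in shControl. Here the shIMPDH2 libraries were the lowest and the shIMPDH1 libraries the highest, with no overlap. The difference was -1.32 (SE 0.025, edgeR adjusted p = 1.85e-24), or 2.50-fold. The plot of the target transcripts shows these values library by library.

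Between the pools 7648 of 17396 genes were called (44.0%), of which 3783 (21.7%) were higher and 3865 (22.2%) lower in shIMPDH2. Most differences were small: called genes had a median fold of 1.19, 1397 passed 1.5-fold, 576 (3.31%) passed 2-fold and 70 passed 4-fold. Of the genes past 2-fold, 283 were higher and 293 lower. Over all genes tested, 8954 (51.5%) showed no overlap of the pools' libraries, and 7333 of the called genes were among them. The median over all genes tested was -0.01. Counts within the gene lists below are to be read beside the 21.7% higher and 22.2% lower over all genes tested. Those shares take in many genes of low level. With a filter of 1 CPM in 3 libraries, which tests fewer genes, 7415 were still called. Shares among genes matched in level to the lists were not computed. The count past 2-fold was 295 instead of 576 when genes had to reach 1 CPM in 3 libraries, a filter that tests fewer genes of low level.

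**Figure D1:**
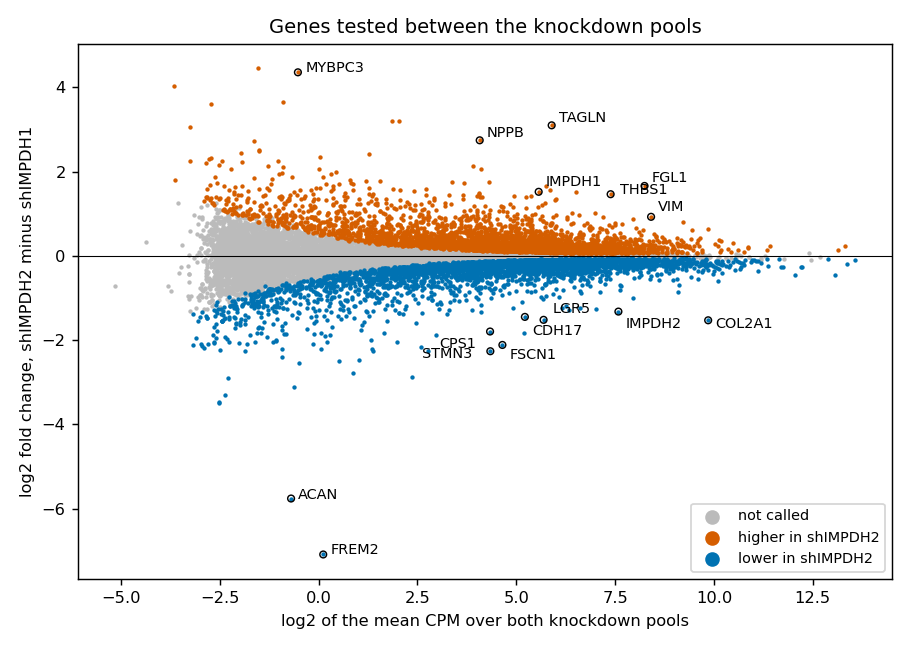
Difference between the pools (log2 fold change, shIMPDH2 minus shIMPDH1) against the log2 of the mean CPM over both pools for the 17396 genes tested, 1 point per gene, coloured by call. The 3783 genes called higher and 3865 called lower spread to both sides of 0, with TAGLN at 3.10 and COL2A1 at -1.53 standing out at high levels and FREM2 and ACAN lowest at low levels.

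The 12 genes of largest difference in each direction, among those of moderate or high level, have varied functions. Of those higher in shIMPDH2, 5 encode contractile or matrix proteins, a grouping made after their values were seen: TAGLN, MYL9, CNN1, COL12A1 and BGN. TAGLN (chr11:117199321-117204782, plus strand) encodes transgelin, an actin-binding protein of smooth muscle and myofibroblasts. It stood at 12.6, 12.5 and 12.2 CPM in shIMPDH1 and at 106, 104 and 110 CPM in shIMPDH2. The shControl libraries, at 53.1, 48.9 and 50.9 CPM, lay between the pools. The difference was 3.10 (SE 0.041, edgeR adjusted p = 1.27e-27), or 8.57-fold, the largest of the genes whose mean log2 CPM was 2 or more and whose pools did not overlap. Exons of a gene on the other strand cover 11.4% of its exon bases, and whether the counting used strand is not given in the sources used here.

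NPPB (chr1:11857464-11858931, minus strand), the gene of the B-type natriuretic peptide that stretched heart muscle releases, stood at 4.49, 4.57 and 4.08 CPM in shIMPDH1, at 28.8, 28.3 and 30.9 CPM in shIMPDH2 and at 15.4, 15.1 and 15.3 CPM in shControl. As for TAGLN, the control lay between the pools without overlap. The difference was 2.74 (SE 0.061, edgeR adjusted p = 1.04e-22). ALPK3, a kinase gene best known from heart muscle, was higher by 2.12, MYL9, the regulatory light chain of smooth muscle myosin, by 1.65 and CNN1, calponin of smooth muscle, by 1.53. MYL9 was read at 25.7, 26.7 and 26.3 CPM in shIMPDH1 and at 81.1, 81.5 and 84.5 CPM in shIMPDH2. Genes of the matrix were in the same set, with COL12A1, a fibril-associated collagen, at 1.75 and the proteoglycan gene BGN at 1.75. The 30.0 to 32.1 CPM of COL12A1 in shIMPDH2 overlapped the 30.9 to 33.0 CPM of shControl.

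The remaining genes of this set belong to other functions. FGL1 (chr8:17864380-17910365, minus strand) encodes fibrinogen-like protein 1, which hepatocytes secrete. It stood at 143, 146 and 149 CPM in shIMPDH1, at 453, 463 and 467 CPM in shIMPDH2 and at 178, 183 and 187 CPM in shControl. The shControl level was nearer to that of shIMPDH1. The difference was 1.66 (SE 0.026, edgeR adjusted p = 5.04e-26). PKIB, an inhibitor of protein kinase A, and MGAM, an intestinal glucosidase, had the same order of group means, with differences of 2.06 and 1.73. For MGAM the 5.67 to 6.32 CPM of shIMPDH1 overlapped the 6.17 to 8.04 CPM of shControl. ANXA3, an annexin, was at 28.9, 30.4 and 28.7 CPM in shIMPDH1, and its 85.0 to 88.4 CPM in shIMPDH2 overlapped the 83.8 to 86.8 CPM of shControl. The phosphatase gene UBASH3B differed by 1.60.

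Of the 12 genes with the largest differences towards a lower level in shIMPDH2, COL2A1 had the highest CPM. It encodes the fibrillar collagen of cartilage (chr12:47972965-48004554, minus strand) and stood at 1388, 1372 and 1365 CPM in shIMPDH1, at 470, 484 and 477 CPM in shIMPDH2 and at 1642, 1585 and 1567 CPM in shControl. Both pools were below the control, and shIMPDH2 was much the lower. The difference was -1.53 (SE 0.025, edgeR adjusted p = 6.92e-26). CDH17, liver-intestine cadherin, had the same order, with 53.6 to 55.4 CPM in shIMPDH1, 19.4 to 20.3 CPM in shIMPDH2 and 80.8 to 82.4 CPM in shControl, a difference of -1.45 (SE 0.036, edgeR adjusted p = 1.24e-21).

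The other genes of this direction, apart from NTAN1, stood above the control in shIMPDH1. STMN3, a stathmin that binds tubulin, was at 33.4, 33.7 and 33.7 CPM in shIMPDH1, at 6.45, 6.93 and 7.69 CPM in shIMPDH2 and at 12, 13.4 and 11.5 CPM in shControl. The control again lay between, and the difference was -2.26 (SE 0.061, edgeR adjusted p = 5.51e-21). FSCN1, which encodes fascin, the bundler of actin in filopodia, was at 41.4, 42.3 and 38.6 CPM against 8.37, 9.69 and 10.3 CPM, a difference of -2.11 (SE 0.057, edgeR adjusted p = 4.67e-21). It went against the other actin-binding genes named above. SULT1E1, the estrogen sulfotransferase, differed by -2.26, GALNT7, which starts mucin-type sugar chains, by -1.88, COL26A1 by -1.83, BRINP3 by -1.58 and the skeletal muscle actinin ACTN3 by -1.37. NTAN1, an amidase for asparagine at the start of proteins, was at 9.42 to 10.1 CPM in shIMPDH1 and 2.05 to 2.47 CPM in shIMPDH2, while shControl was at 9.89 to 11.2 CPM.

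**Figure D2:**
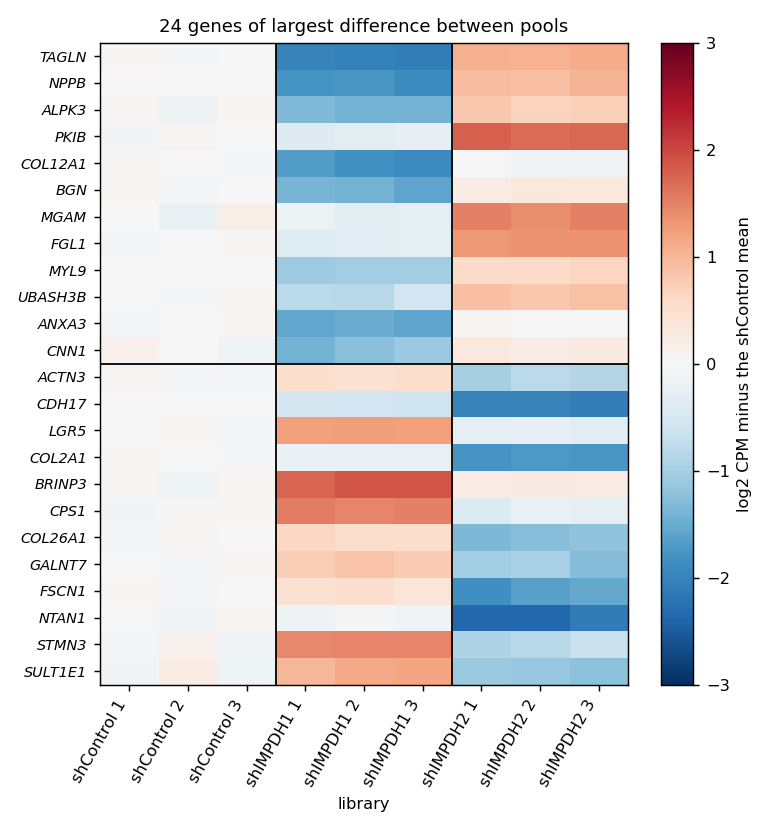
Heat map of the 24 genes of largest difference (12 in each direction, rows), with 1 column per library and colour for log2 CPM minus the mean of the shControl libraries, from -3 to 3. The 3 libraries within a group look alike in every row, TAGLN and NPPB are below the control in shIMPDH1 and above it in shIMPDH2, and STMN3, CPS1 and SULT1E1 are the opposite.

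Actin fibres, the transcription factors SRF and YAP, and integrins form 1 known circuit: polymerised actin releases the cofactors of SRF, tension keeps YAP in the nucleus where it binds TEAD factors, and the targets of both include cytoskeletal and adhesion genes. Genes of this circuit were mostly higher in shIMPDH2 than in shIMPDH1. Mean log2 CPM of YAP and TEAD targets was 5.02 to 5.04 in shIMPDH1, 5.39 to 5.44 in shIMPDH2 and 5.35 to 5.38 in shControl. For actin and SRF targets it was 7.47 to 7.49, 7.73 to 7.78 and 7.74 to 7.77. For integrins and laminins it was 4.40 to 4.44, 4.66 to 4.71 and 4.81 to 4.84. In these lists shIMPDH1 was the lowest group. The shIMPDH2 libraries were slightly above shControl for YAP and TEAD targets and overlapped it for actin and SRF targets. They were below shControl for integrins and laminins. In the mesenchymal list shIMPDH2, at 4.81, was also above shControl, at 4.65 to 4.70. Of 9 cytoskeletal and adhesion genes of the mesenchymal list, 9 were higher (median 0.73), against 21.7% of all genes tested. Besides TAGLN, MYL9 and CNN1 they include vimentin, VIM, the intermediate filament of mesenchymal cells, which stood at 236, 234 and 233 CPM in shIMPDH1 and at 441, 445 and 452 CPM in shIMPDH2, a difference of 0.93 (SE 0.024, edgeR adjusted p = 1.47e-21). The shControl libraries were between, at 334 to 343 CPM. Tropomyosin TPM1 differed by 0.73, LMNA by 0.40, and the cadherin of mesenchymal cells, CDH2, by 0.13. For VIM, 24.4% of exon bases overlap exons on the other strand.

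Of the matrix and secreted members of the mesenchymal list 11 of 20 were higher and 4 lower (median 0.25). THBS1, the gene of thrombospondin, stood at 89.0, 90.0 and 88.2 CPM in shIMPDH1, at 255, 234 and 248 CPM in shIMPDH2 and at 134, 132 and 130 CPM in shControl. The groups did not overlap, and the difference was 1.46 (SE 0.030, edgeR adjusted p = 1.34e-23). COL1A1 was higher by 1.56, the matrix protein SPARC by 1.22 and TIMP1 by 1.22. COL1A2, the partner chain of COL1A1 in type I collagen, was lower by 0.27, COL6A1 by 0.76 and the crosslinking enzyme LOX by 0.33. Fibronectin, FN1, was at -0.01 and not called. Of 4 transcription factors of the programme that passed the filter, ZEB2 was higher (0.86) and SNAI2 lower (-1.32), and SNAI1 (0.02) and ZEB1 (0.07) were not called. TWIST1, ACTA2, COL4A2, COL5A1, COL6A2 and MMP2 of the same list did not pass the filter. Over the 33 members that did, 21 were higher, 5 lower and 7 not called. Fibroblast markers, with COL1A1 and COL1A2 among them, summed to 97.2 to 99.7 CPM in shIMPDH1 and 90.3 to 93.3 CPM in shIMPDH2, and DCN did not pass the filter.

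Of 19 targets of YAP and TEAD that passed the filter, 16 were higher in shIMPDH2, 1 was lower and 2 were not called, with a median of 0.30. CYR61, a secreted matricellular protein gene, was at 20.6, 20.4 and 22.0 CPM in shIMPDH1, at 56.5, 53.5 and 56.0 CPM in shIMPDH2 and at 40.5, 39.2 and 40.2 CPM in shControl, a difference of 1.40 (SE 0.040, edgeR adjusted p = 1.59e-20). ANKRD1, an ankyrin repeat protein gene, was at 38.1, 34.6 and 35.0 CPM in shIMPDH1 and at 95.4, 88.2 and 92.0 CPM in shIMPDH2, a difference of 1.36 (SE 0.038, edgeR adjusted p = 9.25e-21). CTGF, the connective tissue growth factor, was at 112, 111 and 111 CPM in shIMPDH1 and at 149, 151 and 156 CPM in shIMPDH2, a difference of 0.45 (SE 0.026, edgeR adjusted p = 1.15e-13). For each of these 3 genes the control lay between the pools. The pathway's own feedback genes AMOTL2 and LATS2 were higher by 0.42 and 0.26. FJX1 was the member that was lower (-0.57), and AMOTL1 and DLC1 were not called.

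Of 26 targets of actin and SRF, 20 were higher, 2 lower and 4 not called, with a median of 0.20. TPM4, a tropomyosin, was at 433, 441 and 436 CPM in shIMPDH1, at 756, 745 and 773 CPM in shIMPDH2 and at 697 to 730 CPM in shControl, so that the shIMPDH1 libraries stood apart from the other 6. The difference was 0.79 (SE 0.025, edgeR adjusted p = 9.83e-20). FLNA, the actin crosslinker filamin A, was at 722, 737 and 724 CPM in shIMPDH1, at 1129, 1113 and 1162 CPM in shIMPDH2 and at 1373 to 1407 CPM in shControl. Here both pools were below the control, and shIMPDH1 was the lowest. The difference was 0.64 (SE 0.024, edgeR adjusted p = 6.61e-18). ZYX, the focal adhesion protein zyxin, was at 231 to 236 CPM in shIMPDH1, 233 to 245 CPM in shControl and 339 to 375 CPM in shIMPDH2, and differed by 0.61. LIMA1 differed by 0.66, actinin ACTN1 by 0.41 and SRF itself by 0.09. The cytoplasmic actins went apart, with ACTB at 0.13 and ACTG1 at -0.11, both called. FOS, an immediate early gene, was lower (-0.52), and EGR1, another, was higher (0.83). Integrins, the receptors that tie actin to the matrix, were higher for 9 of 12 members and lower for 1, and laminins were higher for 5 of 7 and lower for 0. ITGB1 was higher by 0.31, ITGAV by 0.39, ITGA5 by 0.44 and the laminin LAMB2 by 0.42, and ITGB8 was lower by 1.14.

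Promoter sequence of 5 of these genes is printed because their lists are defined by transcription factors with known motifs. The genes were chosen for holding the motif, after their values were seen. SRF binds the CArG box, and GGAATG is a core of the TEAD motif. The sequences are from RefSeq on GRCh38.p14, taken from the 250 bases before the start site and ending where exons of the gene in GENCODE 29 begin. They read 5′ to 3′ on the strand of the gene, with matches of the motif in capitals.
CTGF (chr6:131951374-131951622, minus strand): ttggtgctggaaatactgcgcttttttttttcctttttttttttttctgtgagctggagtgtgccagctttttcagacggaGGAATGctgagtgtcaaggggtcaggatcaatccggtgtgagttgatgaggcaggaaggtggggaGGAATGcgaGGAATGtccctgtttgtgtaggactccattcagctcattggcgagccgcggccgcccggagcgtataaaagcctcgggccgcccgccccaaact
ANKRD1 (chr10:90921277-90921337, minus strand): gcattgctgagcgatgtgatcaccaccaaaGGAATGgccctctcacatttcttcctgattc
FLNA (chrX:154374639-154374884, minus strand): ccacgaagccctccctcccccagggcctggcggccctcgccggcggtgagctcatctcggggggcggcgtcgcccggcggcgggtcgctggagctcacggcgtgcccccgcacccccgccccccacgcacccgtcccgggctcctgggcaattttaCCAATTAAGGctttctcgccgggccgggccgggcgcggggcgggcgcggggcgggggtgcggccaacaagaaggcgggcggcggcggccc
ACTN1 (chr14:68977655-68977816, minus strand): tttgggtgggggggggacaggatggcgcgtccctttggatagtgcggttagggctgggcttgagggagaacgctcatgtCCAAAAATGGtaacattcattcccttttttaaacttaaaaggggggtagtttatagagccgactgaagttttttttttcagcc
EGR1 (chr5:138465229-138465478, plus strand): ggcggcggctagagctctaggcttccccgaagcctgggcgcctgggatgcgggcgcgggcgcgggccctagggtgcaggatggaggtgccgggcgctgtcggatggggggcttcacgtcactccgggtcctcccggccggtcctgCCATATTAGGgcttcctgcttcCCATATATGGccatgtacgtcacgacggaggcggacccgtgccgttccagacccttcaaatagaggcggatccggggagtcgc

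The 3 GGAATG matches of CTGF begin 169, 104 and 95 bases before its start site, and that of ANKRD1 220 bases before. The CArG box begins 94 bases before the start site of FLNA, 171 before that of 1 of the 4 windows of ACTN1, and 105 and 83 bases before that of EGR1. Searched on both strands, GGAATG is in 14.3% of 27305 genes with a window and in 7 of 14 genes of the YAP and TEAD list that could be matched. The CArG box, which reads the same way on both strands, is in 1.44% of genes and in 8 of 25 genes of the actin and SRF list. Such a match describes the sequence and is no evidence of binding in these cells. CYR61 was not matched in the promoter table. TAGLN and MYL9 belong to the mesenchymal list and are not in these counts.

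Ribosomal proteins were lower in shIMPDH2 than in shIMPDH1 almost throughout, by small amounts. Of 79 genes of cytosolic ribosomal proteins 72 were lower, 0 were higher and 7 were not called (median -0.22), against 22.2% lower over all genes tested. The large subunit had 43 of 47 lower and the small subunit 29 of 32. Their summed level was 53861 to 56444 CPM in shIMPDH1, 46866 to 48525 CPM in shIMPDH2 and 48392 to 50517 CPM in shControl, so the pools did not overlap and the shIMPDH1 libraries were the highest of the 9. RPLP1, of the ribosome stalk, was at 1146, 1147 and 1183 CPM in shIMPDH1 and at 883, 936 and 884 CPM in shIMPDH2, a difference of -0.36 (SE 0.027, edgeR adjusted p = 9.74e-12). RPSA differed by -0.32 and RPS6, the substrate of S6 kinase, by -0.33. Between 70 and 74 members were lower under each of 17 other settings and none was higher. Many of these genes have near-identical pseudogenes that can share reads.

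Factors that build ribosomes held genes of both directions. Of 40 nucleolar and ribosome biogenesis genes, 21 were lower, 6 higher and 13 not called (median -0.08). DDX18, an RNA helicase, was at 170, 169 and 171 CPM in shIMPDH1 and at 132, 135 and 128 CPM in shIMPDH2, a difference of -0.37 (SE 0.028, edgeR adjusted p = 1.86e-11). NOLC1 differed by -0.21, RRP1B by -0.22 and HEATR1 by -0.27. For HEATR1, 23.15% of exon bases overlap exons on the other strand. The abundant nucleolar proteins nucleolin, NCL (-0.05, not called), and nucleophosmin, NPM1 (-0.08, lower) were close to 0. Of 33 subunits and factors of RNA polymerases I and III, which transcribe rRNA and tRNA genes, 10 were lower, 6 higher and 17 not called (median -0.05). The shares lower and higher were 30.3% and 18.2%, against 22.2% and 21.7% over all genes tested. GTF3C4 was lower by 0.42 and POLR3E by 0.23, and BRF2 was higher by 0.30, with 59.0% of its exon bases overlapped on the other strand.

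Among transcripts of the respiratory chain, of the 13 mRNAs encoded by mitochondrial DNA 9 were lower, 0 higher and 4 not called (median -0.27). MT-ND4, a subunit of complex I, was at 9742, 10173 and 9837 CPM in shIMPDH1 and at 6992, 7358 and 7236 CPM in shIMPDH2, a difference of -0.46 (SE 0.054, edgeR adjusted p = 6.46e-08). In shControl it was at 8204, 10298 and 10839 CPM, a wider spread than in either pool, and its replicate 1 lay between the pools. Mitochondrial genes as a whole took 5.09% to 5.25% of counts in shIMPDH1, 4.40% to 4.51% in shIMPDH2 and 4.55%, 5.35% and 5.54% in shControl. The part of this share in other results was not tested. Of 54 respiratory subunits encoded in the nucleus, 22 were lower, 6 higher and 26 not called (median -0.06), with COX4I1 at -0.25, ATP5G1 at -0.33 and NDUFB8 at -0.46.

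Around the targeted step, the genes that make IMP had differences of 0.16 or less in size. Of the 6 genes that lead to IMP, 4 were lower in shIMPDH2 and 2 were not called (median -0.08). PFAS was at 188 to 194 CPM in shIMPDH1 and 171 to 172 CPM in shIMPDH2, a difference of -0.16. GART, which catalyses 3 steps of the route, differed by -0.10, PAICS by -0.08 and ADSL by -0.07, and PPAT, the committing step, at 0.05 and ATIC at 0.01 were not called. The call of ADSL (edgeR adjusted p = 0.0478) was lost under 12 of 17 other settings, where its adjusted p ranged up to 0.224, and leaving out a library was enough in 7 of them: shControl replicate 2 or 3, shIMPDH1 replicate 2 or 3, or any 1 of the shIMPDH2 libraries. After IMPDH, GMPS, which aminates XMP to GMP, was at -0.01 and not called, and GUK1, the GMP kinase, was lower by 0.12. GMPR2, which returns GMP to IMP, was higher by 0.08. That call was lost with edgeR without shIMPDH1 replicate 1 (adjusted p = 0.0698) or 2 (adjusted p = 0.0639), without shIMPDH2 replicate 3 (adjusted p = 0.0542) and with upper-quartile factors (adjusted p = 0.0889). GMPR was not called (-0.15).

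Salvage and breakdown followed. GDA, guanine deaminase, which turns guanine into xanthine and so removes it from salvage, was at 42.1, 41.9 and 43.8 CPM in shIMPDH1, at 18.7, 17.3 and 17.8 CPM in shIMPDH2 and at 40.4, 37.8 and 38.2 CPM in shControl. The shIMPDH2 libraries stood apart below the other 6. The difference was -1.25 (SE 0.043, edgeR adjusted p = 1.21e-18), or 2.37-fold. DGUOK, the deoxyguanosine kinase of mitochondria, was at 51.0 to 53.2 CPM in shIMPDH1 and 37.9 to 39.2 CPM in shIMPDH2 and differed by -0.43. HPRT1, which salvages guanine and hypoxanthine, was lower by 0.13, a call lost without shIMPDH1 replicate 2 (edgeR adjusted p = 0.0748), and PNP, which frees the bases from nucleosides, was higher by 0.14.

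On the adenine side, ADSS, the enzyme that takes IMP towards AMP and competes with IMPDH for it, was at 94.4, 89.9 and 93.2 CPM in shIMPDH1 and at 72.1, 67.1 and 70.5 CPM in shIMPDH2. The shControl libraries, at 80.6 to 84.0 CPM, lay between. The difference was -0.40 (SE 0.032, edgeR adjusted p = 5.37e-11). APRT, which salvages adenine, differed by -0.35, adenosine kinase, ADK, by -0.24, and NT5E, the surface enzyme that makes adenosine, by -0.42. Adenosine deaminase, ADA, was higher by 0.38. Over the 16 members of the adenine list that passed the filter, 3 were higher, 5 lower and 8 not called. The shares higher and lower were 18.75% and 31.25%, against 21.7% and 22.2% over all genes tested. AMPD1 did not pass it.

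Routes that feed purine synthesis were described next. In the pentose phosphate pathway and PRPP synthesis 5 of 11 genes were lower and 2 higher. Transketolase, TKT, was lower by 0.38. PRPS2, a PRPP synthetase of low level (1.41 CPM in shIMPDH1 and 1.98 CPM in shIMPDH2), was higher by 0.50. The far more abundant synthetase gene PRPS1, at 92.7 and 91.0 CPM, was not called (-0.03). In serine and one-carbon metabolism, which supplies formyl groups for the purine ring, 16 of 27 genes were lower, 6 higher and 5 not called (median -0.12). The 10-formyltetrahydrofolate dehydrogenases ALDH1L1 and ALDH1L2 were lower by 1.2 and 1.05 and methionine synthase, MTR, by 0.48, while MAT1A, the S-adenosylmethionine synthetase of adult liver, was at 9.75 to 11.3 CPM in shIMPDH1 and 21.0 to 23.7 CPM in shIMPDH2 and differed by 1.08. In pyrimidine and deoxynucleotide synthesis 8 of 21 genes were higher and 5 lower. CTP synthase, CTPS1, which like IMPDH can assemble into filaments, was at 163 to 169 CPM in shIMPDH1 and 117 to 124 CPM in shIMPDH2, a difference of -0.45 (SE 0.027, edgeR adjusted p = 1.40e-13).

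Liver functions divided by kind. CPS1 (chr2:210477682-210679107, plus strand), the enzyme that brings ammonia into the urea cycle, was at 32.2, 30.5 and 31.4 CPM in shIMPDH1, at 8.37, 9.56 and 9.25 CPM in shIMPDH2 and at 10.4, 11.4 and 11.4 CPM in shControl. Here the shIMPDH1 libraries stood apart above the other 6. The difference was -1.79 (SE 0.055, edgeR adjusted p = 8.89e-20), or 3.47-fold. Of the 8 genes of the cycle 5 were lower, 0 higher and 3 not called (median -0.18), with ARG1 at -0.47 and ASS1 at -0.30.

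Secreted plasma proteins leaned the other way where they serve clotting and complement. Of 25 such genes 19 were higher in shIMPDH2, 3 lower and 3 not called (median 0.29). Coagulation factor F5 was at 155 to 158 CPM in shIMPDH1, 210 to 212 CPM in shIMPDH2 and 178 to 193 CPM in shControl, a difference of 0.43 (SE 0.027, edgeR adjusted p = 4.23e-13). The complement proteases C1S and C1R were higher by 0.87 and 0.76, complement C4A by 1.01 and ITIH3 by 1.13. Of the chains of fibrinogen, FGB was higher by 0.34 and FGA and FGG were lower by 0.16 and 0.25. Plasma carriers were 6 higher and 11 lower of 21 (median -0.07), with ALB at 0.23, ceruloplasmin, CP, at 0.74, APOM at -0.30 and APOE at -0.20. For CP, 19.4% of exon bases overlap exons on the other strand.

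Of 19 liver transcription factors 3 were higher, 7 lower and 9 not called. The bile acid receptor FXR, NR1H4, was at 130, 136 and 135 CPM in shIMPDH1, at 232, 225 and 231 CPM in shIMPDH2 and at 162 to 172 CPM in shControl, a difference of 0.78 (SE 0.028, edgeR adjusted p = 2.72e-18). NR0B2, or SHP, a known target of that receptor, was at 7.08 to 8.6 CPM in shIMPDH1 and 12.3 to 14.6 CPM in shIMPDH2 and differed by 0.77. HNF4A, a main regulator of hepatocyte genes, was lower by 0.20 and HNF4G by 0.39, and the FOXA factors, each at -0.04, were not called. Among genes of detoxification, cytochromes P450 were lower for 4 of 12 and higher for 0, and conjugating enzymes were lower for 9 of 17 and higher for 1. SULT1E1, given above, was the lowest of the list. SULT2A1, the sulfotransferase of bile acids and steroids, was lower by 0.66, GSTP1 by 0.51 and GSTA2 by 1.04. SULT1A1 was the member that was higher (0.46). Glutathione transferases and UGT2B genes are families of close relatives, so reads may be divided between them.

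Markers of intestinal and biliary epithelium gave the lowest median of the 38 lists, -0.56, with 10 of 18 members lower, 3 higher and 5 not called. GUCY2C, the intestinal receptor for guanylin, was at 4.45, 4.20 and 4.12 CPM in shIMPDH1 and at 0.739, 0.954 and 0.990 CPM in shIMPDH2, with 6.45 to 7.29 CPM in shControl. Both pools were below the control. The difference was -2.26 (SE 0.130, edgeR adjusted p = 7.52e-14). NOX1, a superoxide-producing oxidase of the colon, was lower by 2.21, the mucin MUC13 by 1.06, EPCAM by 0.75 and CDX2, the intestinal homeobox factor, by 0.71. Villin, VIL1, a protein of microvilli, went against these: it was at 171 to 177 CPM in shIMPDH1, 321 to 325 CPM in shIMPDH2 and 295 to 299 CPM in shControl, a difference of 0.88, with 44.0% of its exon bases overlapped on the other strand. KRT19 and SOX9, markers of bile duct cells, were not called (0.10 and -0.07). The summed level of cholangiocyte markers was 171 to 176 CPM in shIMPDH1 and 156 to 163 CPM in shIMPDH2, and KRT7 of that list did not pass the filter.

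LGR5 (chr12:71439770-71586310, plus strand), the receptor of R-spondins and a Wnt target in stem cells, was at 76.1, 77.3 and 76.4 CPM in shIMPDH1, at 26.6, 27.5 and 26.2 CPM in shIMPDH2 and at 31.2 to 34.0 CPM in shControl. The shIMPDH1 libraries stood apart above the other 6. The difference was -1.52 (SE 0.037, edgeR adjusted p = 4.81e-22). DKK1, a secreted inhibitor of Wnt, was at 136 to 139 CPM in shIMPDH1, 56.4 to 61.5 CPM in shIMPDH2 and 54.0 to 58.7 CPM in shControl, so that the ranges of shIMPDH2 and shControl overlapped, and differed by -1.23. The feedback inhibitor AXIN2 was lower by 1.35, NKD1 by 1.14 and TBX3 by 0.50, while NOTUM, NKD2 and DKK3 were higher by 0.98, 0.93 and 0.76. Of these, NOTUM (1.04 CPM in shIMPDH1 and 2.06 CPM in shIMPDH2) and NKD2 (0.390 and 0.746 CPM) were of low level. Of 13 Wnt genes that passed the filter, 7 were lower, 3 higher and 3 not called (median -0.15). Fetal liver and liver cancer markers had 11 of 21 lower and 4 higher (median -0.10). MDK, the heparin-binding growth factor midkine, was at 322 to 337 CPM in shIMPDH1 and 152 to 171 CPM in shIMPDH2, a difference of -1.0, DLK1 differed by -0.82 and SPINK1 by -0.59. AKR1B10 (1.11) and CD44 (0.58) were higher, and AFP was lower by 0.10.

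Of 24 antioxidant genes under the factor NRF2, 15 were lower in shIMPDH2 (62.5%, against 22.2% of all genes tested), 7 were higher (29.2%, against 21.7%) and 2 were not called (median -0.18). NQO1, a quinone reductase, was at 464, 465 and 472 CPM in shIMPDH1, at 312, 317 and 313 CPM in shIMPDH2 and at 345 to 357 CPM in shControl. The shIMPDH1 libraries were the highest, and the difference was -0.57 (SE 0.023, edgeR adjusted p = 4.54e-17), with 17.7% of exon bases overlapped on the other strand. AKR1C1, an aldo-keto reductase with near-identical relatives, was at 95.6 to 102 CPM against 39.9 to 46.0 CPM and differed by -1.25. Ferritin light chain, FTL, differed by -0.46. HMOX1, another well-known target, was higher by 0.15, and ABCC3 by 0.62.

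Stress genes were mixed. Of 24 genes of ATF4 and the integrated stress response, 12 were lower, 5 higher and 7 not called (median -0.07). GDF15, a secreted stress hormone, was at 19.6 to 20.5 CPM in shIMPDH1 and 36.4 to 37.7 CPM in shIMPDH2, a difference of 0.88, NUPR1 was higher by 1.25 and TRIB3 by 0.51. In contrast PSAT1 and PHGDH, of serine synthesis, were lower by 0.27 and 0.24, and DDIT3 (CHOP) at -0.06 was not called. Of 19 chaperones of the endoplasmic reticulum 12 were lower, 3 higher and 4 not called (median -0.12), with HSPA5 (BiP) at -0.12 and HERPUD1 at -0.38, and DNAJC3 at 0.40 among those that were higher. In the p53 list 8 of 22 were lower (36.4%) and 7 higher (31.8%). Without shIMPDH1 replicate 1 the lower count was 5. PLK2 was lower by 0.56 and the cell cycle inhibitor CDKN1A by 0.33, and the ubiquitin ligase MDM2 was higher by 0.18.

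Lipid genes were described by route. Of 20 enzymes of cholesterol synthesis 12 were lower and 1 higher (median -0.10), with MVD at -0.37, TM7SF2 at -0.46 and LSS at -0.26. In the list for making and storing fatty acids 11 of 20 were lower and 6 higher (median -0.08). DGAT1, which closes triglyceride synthesis, was lower by 0.49, ELOVL6 by 0.38 and the droplet coat PLIN2 by 0.28. In fatty acid oxidation 10 of 22 were lower and 5 higher. CPT1A, the gate of long-chain fatty acids into mitochondria, was the largest of those higher, at 7.95 to 9.12 CPM in shIMPDH1 and 15.5 to 17.2 CPM in shIMPDH2, a difference of 0.95 (SE 0.064, edgeR adjusted p = 1.66e-12), and PPARGC1A, a coactivator of mitochondrial genes, was lower by 0.83.

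Proliferation genes did not part the pools in 1 direction. Of 40 genes of G2 and mitosis 10 were higher, 10 lower and 20 not called (median -0.02), and of 44 genes of DNA replication 14 were higher, 11 lower and 19 not called (median 0.03). The shares higher and lower were 25% each for G2 and mitosis. For DNA replication they were 31.8% and 25%, against 21.7% and 22.2% over all genes tested. Single members did differ. Cyclin A, CCNA2, was at 98.4 to 106 CPM in shIMPDH1, 141 to 145 CPM in shIMPDH2 and 135 to 141 CPM in shControl, a difference of 0.50 (SE 0.029, edgeR adjusted p = 8.31e-14). The cyclins E went apart, CCNE1 at -0.49 and CCNE2 at 0.45, with 37.1% of exon bases of CCNE2 overlapped on the other strand. KIF11 was higher by 0.34 and KIF23 lower by 0.32.

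For PI3K, mTOR and insulin signalling 14 of 29 genes were higher, 5 lower and 10 not called (median 0.11). The catalytic subunit PIK3CB was at 38.5 to 40.7 CPM in shIMPDH1 and 57.8 to 58.7 CPM in shIMPDH2, a difference of 0.57, and EIF4EBP2, a brake on translation, was higher by 0.40. The kinase AKT1 was higher by 0.32. Of 24 hypoxia targets 10 were higher (41.7%) and 7 lower (29.2%). BNIP3L, a mitophagy receptor, was at 30.8 to 31.4 CPM in shIMPDH1, 47.5 to 53.5 CPM in shIMPDH2 and 61.9 to 64.1 CPM in shControl, a difference of 0.72, while the prolyl hydroxylase P4HA1 was lower by 0.41. In glycolysis 7 of 20 were lower (35%) and 5 higher (25%), with GPI at -0.36 and GAPDH at -0.25. ENO2, at 2.97 CPM in shIMPDH1 and 5.54 CPM in shIMPDH2, was higher by 0.90. The far more abundant ENO1, at 1919 and 1881 CPM, was not called (-0.03).

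Inflammatory genes differed in both directions. Of 18 targets of NF-kB and chemokines 8 were higher, 7 lower and 3 not called. The neutrophil chemokine CXCL8 was at 29.8, 27.3 and 29.5 CPM in shIMPDH1, at 66.9, 61.8 and 66.3 CPM in shIMPDH2 and at 30.3 to 32.8 CPM in shControl. The shIMPDH2 libraries stood apart above the other 6. The difference was 1.17 (SE 0.042, edgeR adjusted p = 2.47e-18). CXCL1, CXCL2, CXCL3 and CXCL5 were higher by 0.44, 0.40, 0.53 and 0.31, and the adhesion receptor ICAM1 by 0.68, with 23.6% of its exon bases overlapped on the other strand. CCL20 was lower by 0.52, and the feedback inhibitors NFKBIA and TNFAIP3 were each lower by 0.19. Of 23 interferon genes 5 were higher, 5 lower and 13 not called. That is 21.7% each way, close to the 21.7% higher and 22.2% lower over all genes tested. Calcium-binding S100 proteins had 5 of 11 higher and 3 lower, with a median of 0.66 that ranged from 0.34 to 1.00 over 17 other settings. Their summed level overlapped, at 232 to 247 CPM in shIMPDH1 and 223 to 238 CPM in shIMPDH2. The most abundant members were lower: S100A10, at 116 and 92.6 CPM, by 0.32 and S100A11, at 51.2 and 45.2 CPM, by 0.18. Among those higher, S100A3 (0.083 and 0.565 CPM) and S100A4 (0.526 and 1.30 CPM) were of low level. S100A6 was at 8.81 to 10.0 CPM in shIMPDH1 and 24.9 to 25.8 CPM in shIMPDH2, a difference of 1.41 (SE 0.057, edgeR adjusted p = 3.16e-17), and S100P was lower by 0.92. LYZ, the lysozyme gene that is also a leukocyte marker, was at 1308 to 1345 CPM in shIMPDH1, 859 to 899 CPM in shIMPDH2 and 885 to 934 CPM in shControl, while CD14, another leukocyte marker, was higher by 0.49.

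At low levels, 3 genes were near absent from every library of 1 pool and reached 1 CPM in every library of the other. FREM2, a protein of the basement membrane, had 100, 105 and 105 counts in shIMPDH1 and 0, 1 and 1 in shIMPDH2, with 6, 4 and 0 in shControl. The ratio of shIMPDH1 to shIMPDH2 was 161, with a 95% counting interval from 44.3 to 1337. ACAN, aggrecan of cartilage, had 56, 57 and 62 counts against 3, 0 and 0, and 17, 30 and 37 in shControl, a ratio of 60.7 (interval 20.4 to 297). FREM2 and ACAN were thus highest in the shIMPDH1 pool. MYBPC3, the myosin-binding protein of heart muscle, was the reverse, with 2, 3 and 4 counts in shIMPDH1, 70, 61 and 68 in shIMPDH2 and 20, 24 and 17 in shControl, a ratio of shIMPDH2 to shIMPDH1 of 21.3 (interval 11 to 47.2). These intervals cover counting error only. With 3 counts worth 0.0554 to 0.0674 CPM in these libraries, a gene at 0 counts was not detectable at this depth, which does not make it absent.

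Differences were also laid along the chromosomes. Copy number was not measured in these libraries. Over 571 windows of 50 neighbouring tested genes, the SD of window medians was 0.0553, and 44 windows were past 0.1 in either direction. The lowest median, -0.18, was at chr16:83899126-89657845, near the end of the long arm, where 31 of 50 genes were lower and 5 higher, with MVD, RPL13, COX4I1 and USP10 among the lower ones. Against shControl the median of that window was 0.21 in shIMPDH1 and 0.04 in shIMPDH2. The highest, 0.17, was at chr8:20197367-27838095 on the short arm, where 28 of 50 were higher and 8 lower. Its medians against shControl were -0.11 in shIMPDH1 and 0.03 in shIMPDH2. XPO7, an exporter of the nuclear pore, was at 109 to 111 CPM in shIMPDH1 and 162 to 164 CPM in shIMPDH2 there, a difference of 0.56, and clusterin, CLU, differed by 0.28. FGL1 lies in the neighbouring windows of that arm, with medians of 0.15 and 0.13, and its own 1.66 was far above them. At chr3:186538441-196318299 the median was 0.15 with 24 higher and 6 lower, CLDN1 at 0.44 and ST6GAL1 at 0.38 among them. Whole chromosomes had medians between -0.07 and 0.04. Of the genes tested, 15075 could be placed.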

How the data were processed

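Polyadenylated RNA of 9 Huh7 libraries was prepared with a strand-specific kit, per the labels' protocols. The values are whole-number counts for each gene symbol, in 1 table as the authors deposited it. Trim Galore, cutadapt, STAR, featureCounts and hg38 are named, without versions, per the submitters' processing notes. The annotation, whether strand was used and how reads with several positions were handled: not given in the sources used here.

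In R 4.3.3, edgeR 4.0.16 was run on the deposited counts with its default filter by group, TMM factors and 1 quasi-likelihood model of all 9 libraries with the group as its only term. The contrast was shIMPDH2 minus shIMPDH1, with Benjamini-Hochberg adjustment over 17396 genes. The SE is the size of the log2 fold change divided by the square root of F. Library totals ranged from 44560837 to 58370328 counts. No libraries of a group agreed within sampling noise (mean chi-square per gene 1.77 to 6.57). Alternatives were other scaling factors, other filters, the 6 knockdown libraries alone, the replicate number as a block, each library left out, and the Wald test of DESeq2 1.42.0. Lists were described by counts and medians, without set tests.

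The comparison, the 43 gene lists and the tests were chosen with earlier results of these data known. The rule for named genes took IMPDH1, IMPDH2 and the purine lists, the 12 genes of largest difference in each direction that had a mean log2 CPM of 2 or more and pools without overlap, up to 4 members of smallest p per list, genes under 0.1 CPM in 1 pool and at 1 CPM or more in the other, and up to 3 genes per extreme chromosome window. Other members named from a list were chosen after their values were seen, to show its range. Positions are from GENCODE 29 on GRCh38, matched by symbol for 36986 of 58684 symbols and for 774 more through an older symbol. Overlap with exons on the other strand is given for some genes only. Others named here have it too, such as GAPDH (14.16% of exon bases) and PNP (11.89%). A few members of the lists are not reported here by name.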

Additional observations from a re-analysis of the deposited data

How the results depend on the processing

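Both target genes kept direction and call under 17 other settings, with IMPDH1 between 1.49 and 1.56 and IMPDH2 between -1.34 and -1.29. The count of genes called ranged from 6812 to 7857 with single libraries left out and was 6870 with DESeq2. Genes past 2-fold numbered 295 with the filter of 1 CPM in 3 libraries, against 576, because fewer genes were tested. Scaling moved the share of called genes that were higher from 49.5% to 57.5% with library totals only and to 44.0% with upper-quartile factors. Deviations of same-numbered shIMPDH1 and shIMPDH2 libraries correlated at -0.0349, -0.0861 and 0.0374. Pairs of unlike number ranged from -0.0761 to 0.107. These values leave out shControl, so an effect shared with its libraries of the same number was not tested in them. In each group replicates 2 and 3 were the closest pair. Their mean chi-square per gene was 1.89 in shControl, 1.77 in shIMPDH1 and 2.06 in shIMPDH2. With a replicate block 7852 genes were called, 568 of them past 2-fold, against 7648 in the main fit. IMPDH1 was then at 1.52 and IMPDH2 at -1.32. With single libraries left out, lower p53 targets ranged from 5 to 8 and higher endothelial markers from 0 to 1, since PECAM1 lost its call without shIMPDH1 replicate 3 (edgeR adjusted p = 0.0540). Of 43 list medians, 37 kept their sign in the 17 settings. The 6 that changed it (G2 and mitosis, gluconeogenesis, p53, interferon, pyrimidine, pentose phosphate) were at most 0.09 in size. The lowest and highest chromosome windows had medians of -0.14 and 0.15 with windows of 100 genes, and -0.15 and 0.19 with library totals only. Genes within a few counts of 0 are limited by depth.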

Other observations

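Genes of cartilage matrix, picked after the values of COL2A1 and ACAN had been seen, differed between the pools in both directions. SOX5, a cartilage transcription factor, was at 23.4, 22.4 and 23 CPM in shIMPDH1 and at 14.2, 14.9 and 12.3 CPM in shIMPDH2, a log2 difference of -0.73 (SE 0.056, edgeR adjusted p = 2.63e-11). The shControl libraries, at 14.2 to 14.5 CPM, were at the level of shIMPDH2. MATN3, a matrilin of cartilage, was at 15.0 to 16.5 CPM in shIMPDH1, 31.2 to 36.4 CPM in shIMPDH2 and 23.8 to 24.8 CPM in shControl, and was higher by 1.15. COL9A2, a collagen that coats fibrils of COL2A1, was higher by 0.44 and COMP, a cartilage oligomeric protein at 1.09 to 2.12 CPM in the pools, by 0.70. COL9A3 (0.12) and SOX9 (-0.07), the main regulator of COL2A1 in cartilage, were not called, although SOX9 passed the threshold under 5 of 17 other settings. COL11A1, a minor collagen of the same fibrils, was lower by 1.29.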
